A study of Mus musculus with 2 samples.

Results

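Mitochondrial ribosomal proteins are the nuclear-encoded protein parts of the ribosome that works inside mitochondria. Genes were taken as members when at least 1 probe set of the arrays named a single gene whose symbol begins with Mrpl or Mrps and a number, a rule that uses no measured value. It found 74 of the 12393 genes measured, 47 of the large subunit (Mrpl) and 27 of the small subunit (Mrps), with 127 probe sets in all. Subunits follow the symbol here, although the proteins of Mrps18a, Mrps30 and Mrps36 are placed outside the small subunit, as given below. The members were measured in B cells carrying IgM and IgD on their surface, sorted by flow cytometry from mouse spleen, on 2 arrays of wild-type cells without genetic modification. The series was designed to set such cells against cells deficient in serum response factor (SRF), a transcription factor, whose arrays were not analysed here. The labels give neither strain nor age, and do not say whether replicate 1 and replicate 2 came from separate mice, so the spread between them may be technical.

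The mitochondrial ribosome translates the few mRNAs transcribed from mitochondrial DNA, all of which encode subunits of the respiratory chain and the ATP synthase. Its proteins are made in the cytosol and imported, and assemble on RNAs transcribed inside the organelle. Many descend from proteins of bacterial ribosomes, and others occur only in mitochondria. Resting B cells keep a small cytoplasm, and activation is known to be followed by growth of the mitochondrial network.

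Values are MAS5 signal intensities, in which the probes of a probe set are condensed to 1 number. A gene was represented by its brightest probe set, taken by mean log2 signal. To judge detection, each array was given a floor, the 90th percentile over 65 probe sets for 37 genes restricted to other organs. It was 149.6 on replicate 1 and 115.9 on replicate 2, and the median signal of all gene probe sets was 103 and 66.6, so dim genes read higher on replicate 1. Of 7 B cell markers 6 passed both floors, the other being Pax5 with 21.5 and 15.6, and of 4 T cell markers 0 did. The B cell receptor gene Cd79a gave 2931 and 192, and Cd74, for the class II invariant chain, 15712 and 7422, each over 2-fold higher on replicate 1. The other 4 that passed lay within 2-fold and were higher on replicate 2. They were Ms4a1, with 3394 and 6347, Ighm, with 9959 and 15633, Cd22, with 4313 and 5301.5, and Cd79b, with 2657 and 3129. Gata1, an erythroid factor, gave 291 and 40.6, above the floor on replicate 1 only, while the globin gene Hba-a1 was below it on both. Of the neutrophil markers 3 of 3 passed both, with a summed signal of 697 on replicate 1 and 867 on replicate 2, and of the monocyte and macrophage markers 2 of 4, with 613 and 502. The calprotectin gene S100a8 gave 164 on replicate 1 and 450 on replicate 2. The other neutrophil markers were S100a9, with 205 and 230, and Ngp, higher on replicate 1, with 327 and 187. Lyz2, for lysozyme, gave 291 and 178, and Csf1r, a growth factor receptor of macrophages, 286 and 249. Itgam and Cd68 were below the floor on both. The 2 measured proliferation markers, Mki67 and Top2a, were below it on both. The signal of the 5′ control probe set was 656 on replicate 1 and 13.5 on replicate 2 for Gapdh, with 3′ signals of 862 and 824. The 3′ to 5′ ratio for Actb was 3.57 and 8.15. The part of these markers and of RNA quality in the results below was not tested, and fewer cells of a type cannot be told apart from less RNA per cell.

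Most members gave signals above the floor. On both arrays 48 of 74, or 64.9%, were above the floor, against 29.8% of all genes. Of the other members, 18 were above it on replicate 2 only, 4 on replicate 1 only and 4 on neither. Counted on each array alone, 52 members passed on replicate 1 and 66 on replicate 2, while of all genes 42.9% passed on replicate 1 and 39.3% on replicate 2. The 48 genes spanned signals from 150.2 to 614 on replicate 1, with a median of 277, and from 118 to 1292 on replicate 2, with a median of 277. These are modest signals. Of the 48, 15 were above 2 times the floor on both arrays, or 31.2%, and of all genes above the floor 43.5% were.

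**Figure D1:**
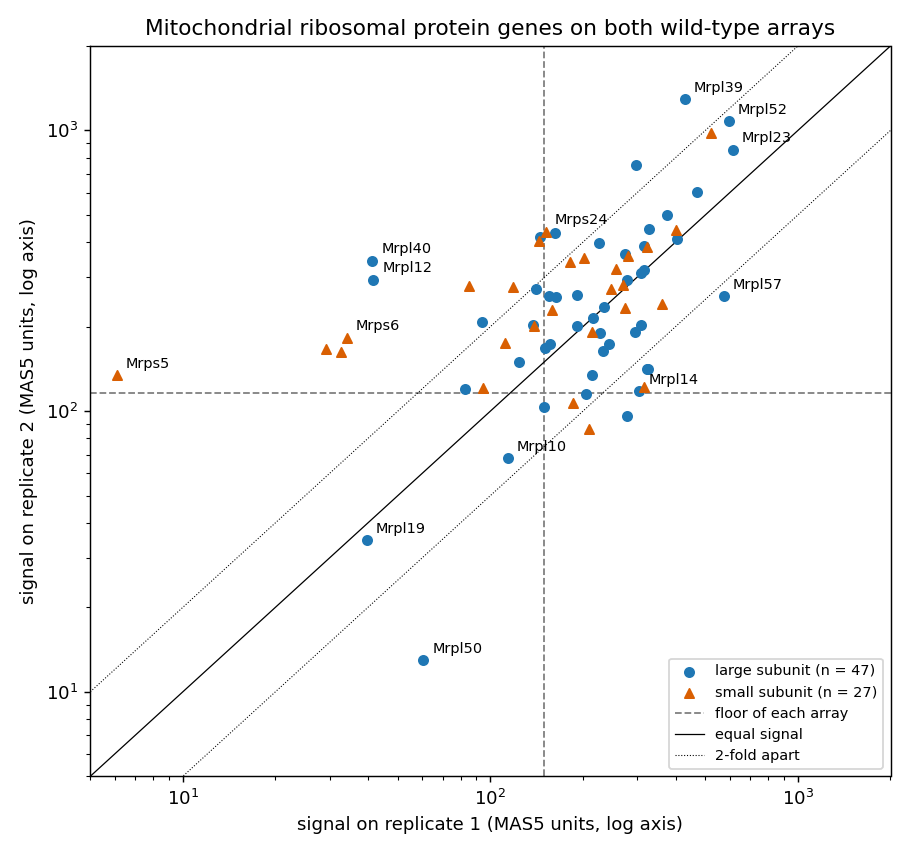
Signal of each of the 74 members on replicate 1 (x axis) and replicate 2 (y axis), both log axes in MAS5 units, with large subunit genes as circles and small subunit genes as triangles. Dashed lines are the floors at 149.6 and 115.9, the solid line is equal signal and dotted lines are 2-fold apart. Most points lie in the upper right, above both floors, and 18 lie to the left of the vertical dashed line but over the horizontal one.

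RefSeq promoter windows of GRCm38.p6, running from 250 bases before to 50 after a gene's start, were matched for 65 of 74 members. They were searched on both strands for letters bound by 3 factors known to drive nuclear genes for mitochondria. These were CCGGAAG for ETS factors such as GABP, a motif of 10 letters for NRF1 and one of 11 letters for YY1. The NRF1 letters are those in capitals in the Mrpl39 window below, with either of the middle bases left free, and the YY1 letters are the second run of capitals in the Mrps18a window. An ETS match stood in the window of 24 members, or 36.9%, against 24.8% of the genes above the floor on both arrays that had a window and 9.93% of all genes with one. NRF1 matches stood in 12 members, or 18.5%, against 14.9% and 5.19%, and YY1 matches in 4, or 6.15%, against 2.44% and 0.755%. At least 1 of the 3 was present in 35 members, or 53.8%, against 37.7% of the genes above the floor and 14.5% of all genes with a window. Of members 5 held 2 or more and 0 held all 3. By windows, of which some genes had several, the shares for all 32851 were 8.86% for ETS, 4.60% for NRF1 and 0.633% for YY1, and for the 71 member windows 33.8%, 16.9% and 5.63%. No ETS match overlapped a match of another motif. Of 28 ETS matches in member windows, 23 began within 60 bases before the start or after it. The median window of members held 21 CpG dinucleotides and 58.7% G or C, against 22 and 61.3% for the genes above the floor and 7 and 52.7% for all windows. The CArG box, the site of SRF, had a match in 0 of 65 members and in 1.81% of all genes. A match is a description of the letters only.

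The windows below show the motif matches in capitals, in members that recur in the results. Mrpl39, a protein related to threonyl-tRNA ligases, has an NRF1 match upstream of its start (chr16:84735195-84735494, reverse strand). Mrpl52, a protein found only in mitochondrial ribosomes, has 2 ETS matches on the opposite strand (chr14:54426659-54426958, forward strand). Mrpl3, a core protein near the peptidyl transferase centre, has 1 ETS match (chr9:105053018-105053317, forward strand). Mrps26, of the small subunit, has an ETS match beside 2 overlapping NRF1 matches at its start (chr2:130563507-130563806, forward strand). Mrps18a, which structures place in the large subunit despite its name, has an ETS match before the start and a YY1 match just after it (chr17:46110754-46111053, forward strand). Each is written 5′ to 3′ along the gene's strand, from RefSeq and GRCm38.p6.
Mrpl39: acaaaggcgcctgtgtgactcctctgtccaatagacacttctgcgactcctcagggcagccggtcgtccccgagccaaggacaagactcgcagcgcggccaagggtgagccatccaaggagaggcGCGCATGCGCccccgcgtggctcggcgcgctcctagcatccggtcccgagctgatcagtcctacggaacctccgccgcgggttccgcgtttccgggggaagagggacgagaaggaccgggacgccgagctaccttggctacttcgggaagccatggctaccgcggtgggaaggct
Mrpl52: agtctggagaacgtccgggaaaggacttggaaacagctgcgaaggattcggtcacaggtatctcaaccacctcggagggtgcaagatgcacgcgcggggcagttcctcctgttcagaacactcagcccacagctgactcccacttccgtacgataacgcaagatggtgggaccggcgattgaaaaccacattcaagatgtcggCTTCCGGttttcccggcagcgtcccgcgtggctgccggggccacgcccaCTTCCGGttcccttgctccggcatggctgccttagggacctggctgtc
Mrpl3: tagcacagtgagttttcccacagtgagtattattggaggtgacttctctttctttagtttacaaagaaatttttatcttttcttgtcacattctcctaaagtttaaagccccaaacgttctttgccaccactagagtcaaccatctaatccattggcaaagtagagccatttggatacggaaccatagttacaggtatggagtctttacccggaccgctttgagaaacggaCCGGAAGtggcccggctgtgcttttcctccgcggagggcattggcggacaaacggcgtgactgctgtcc
Mrps26: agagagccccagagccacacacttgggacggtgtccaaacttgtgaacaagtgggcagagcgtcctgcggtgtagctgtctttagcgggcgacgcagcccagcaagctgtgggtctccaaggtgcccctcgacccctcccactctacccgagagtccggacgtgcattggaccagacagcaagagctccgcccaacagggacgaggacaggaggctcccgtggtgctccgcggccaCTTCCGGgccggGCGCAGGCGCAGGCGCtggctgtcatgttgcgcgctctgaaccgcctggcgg
Mrps18a: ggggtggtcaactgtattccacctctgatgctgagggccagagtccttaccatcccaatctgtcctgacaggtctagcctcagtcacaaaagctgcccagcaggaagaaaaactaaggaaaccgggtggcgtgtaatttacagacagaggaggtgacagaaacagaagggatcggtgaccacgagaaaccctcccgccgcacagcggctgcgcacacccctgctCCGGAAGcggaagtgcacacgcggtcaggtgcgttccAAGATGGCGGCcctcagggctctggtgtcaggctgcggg

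Many members also start back to back with another gene. A gene on the opposite strand with a start within 1000 bases upstream was found for 24 of 65 members, or 36.9%, against 20.9% of genes above the floor and 12.2% of all genes with a window. One such pair joins both subunits, Mrpl46 of the large and Mrps11 of the small. Mrpl46 gave 309.9 on replicate 1 and 203 on replicate 2, above the floor on both, and Mrps11 gave 94.9 and 121, above it on replicate 2 only. Mrps12, which encodes the protein of the decoding centre, faces Sars2, the mitochondrial seryl-tRNA ligase. Its signals were 118 and 276, and those of Sars2 were 41.5 and 10.6, under the floor of each array. Mrpl47 faces Ndufb5, a subunit gene of respiratory complex I, with 94.2 and 208 for Mrpl47 and 435 and 303 for Ndufb5, so Ndufb5 was above both floors and Mrpl47 above that of replicate 2 only. Mrpl49 faces Fau, a precursor gene of a cytosolic ribosomal protein, and Mrpl32 faces Psma2, a proteasome subunit gene. Of 15 measured neighbours that are no members themselves 5 were above the floor on both arrays, or 33.3%, a share near the 29.8% of all genes.

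**Figure D2:**
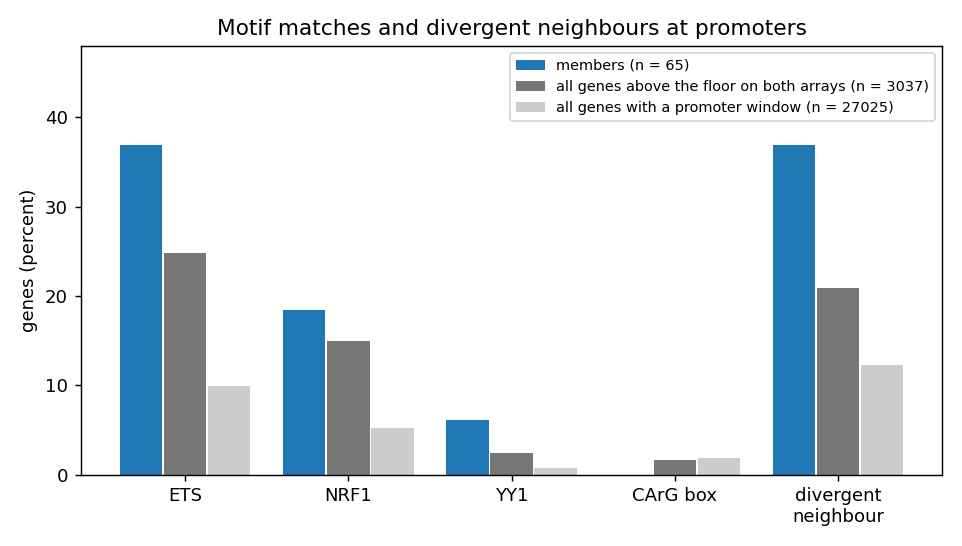
Share of genes (y axis, percent) with a match of each motif in the promoter window, or with a divergent neighbour within 1000 bases. Bars are 65 members, 3037 genes above the floor on both arrays and 27025 genes with a window. For the ETS motif the bars stand at 36.9%, 24.8% and 9.93%, and for the CArG box the members stand at 0.

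Of the large subunit, 33 of 47 genes were above the floor on both arrays, or 70.2%, 2 on replicate 1 only, 8 on replicate 2 only and 4 on neither. The 6 brightest, by which no order of mRNA amount is meant since probes differ in affinity, were Mrpl52, Mrpl39, Mrpl23, Mrpl24, Mrpl41 and Mrpl51. Mrpl23, whose protein lines the exit of the peptide tunnel, gave 614 on replicate 1 and 855 on replicate 2 and so averaged 734 ± 170.4 (SD, n = 2). Mrpl24, beside it at the tunnel exit, gave 469 and 603, a mean of 536 ± 95.1 (SD, n = 2). Both arrays held these tunnel genes well over the floor. Mrpl52 gave 596 and 1080, a mean of 838 ± 343 (SD, n = 2), and Mrpl51, another protein without bacterial counterpart, 375 and 499, a mean of 437 ± 87.8 (SD, n = 2).

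Of 5 genes listed for the core of the large subunit and its peptidyl transferase centre, where peptide bonds form, 5 passed both floors. All 5 lay within 2-fold, beside 76.3% of all genes above the floor, and 5 genes are too few to set these shares apart. Mrpl4 gave 309 on replicate 1 and 310 on replicate 2, Mrpl16 gave 216 and 215, and Mrpl3 gave 405 and 410. Mrpl2 followed with 279 and 294, and Mrpl27 differed most, with 214 and 134. The other probe sets of Mrpl3 gave 20.5 and 90.5, and 8.60 and 55.8, under the floor of each array. The agreement of Mrpl3 therefore rests on 1 of 3 probe sets, while Mrpl2, Mrpl4, Mrpl16 and Mrpl27 had 1 each.

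Of 6 genes for the peptide exit tunnel and the ring of proteins around it, 5 were above the floor on both arrays. Besides Mrpl23 and Mrpl24 these were Mrpl22, with 226 and 396, Mrpl44, with 317 and 318, and Mrpl45, with 155 and 258 on replicates 1 and 2. Mrpl45 holds the ribosome to the inner membrane, where nascent chains are inserted, and Mrpl44 has the fold of a ribonuclease III. In the deposited scaling 5 of 5 were higher on replicate 2, by log2 differences (replicate 1 minus replicate 2) from -0.81 for Mrpl22 to -0.01 for Mrpl44. The signals of Mrpl44 were thus nearly equal. Of all members above the floor on both arrays 68.8% were higher on replicate 2, and of all genes above it 55.1%. Under quantile normalization 3 of the 5 remained higher on replicate 2, with Mrpl23 at 0.06 and Mrpl44 at 0.07, and with the mean over all probe sets Mrpl44 turned to 0.22. Mrpl47 was above the floor on replicate 2 only.

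Translation factors dock at the GTPase centre. Of 4 genes listed for it and for the stalks of the large subunit, 2 were above the floor on both arrays. Mrpl1, of a stalk apart from that centre, gave 226 on replicate 1 and 189 on replicate 2. Mrpl12, of the stalk that contacts elongation factors, gave 41.6 and 294, so replicate 1 was below the floor. The difference, taken against that floor, was at least 1.97-fold. Mrpl10, which anchors the stalk of Mrpl12, gave 114 and 67.8, below the floor on both. Mrpl11, at the base of the same stalk, had 4 probe sets, of which 1 was above the floor on both arrays, with 162 and 432.

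Of 18 large subunit genes listed as specific to mitochondrial ribosomes, 12 were above the floor on both arrays, or 66.7%. Of 29 of bacterial type 21 were, or 72.4%. The genes that passed neither floor were Mrpl9, Mrpl10, Mrpl19 and Mrpl50. Mrpl9 missed it narrowly, with 149.4 and 103, and a second probe set gave 179 and 85.9. Mrpl19 gave 39.7 and 34.6 by the probe set used, and Mrpl50 60.5 and 13.0. Mrpl20 was high on replicate 1 alone, with 278 and 96.2, at least 2.40-fold higher there. Mrpl58, a peptidyl-tRNA hydrolase built into the ribosome, gave 205 and 115, just short of the floor of replicate 2. Of the 8 above the floor on replicate 2 only, those over 2-fold higher there against the floor were Mrpl40 and Mrpl43. Mrpl40 gave 41.3 and 344, at least 2.30-fold higher, and Mrpl43 145 and 416, at least 2.78-fold.

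Of the small subunit, 15 of 27 genes were above the floor on both arrays, or 55.6%, 2 on replicate 1 only, 10 on replicate 2 only and 0 on neither. Its count thus depended on the array, with 17 on replicate 1 and 25 on replicate 2. These counts follow the symbol and include Mrps30 and Mrps36, above the floor on both, and Mrps18a, above it on replicate 1 only. The brightest were Mrps14, Mrps16, Mrps34, Mrps18c, Mrps33 and Mrps26. Mrps14, a protein of the head, gave 520.1 on replicate 1 and 978 on replicate 2 and so averaged 749 ± 324 (SD, n = 2). Mrps16, a body protein, gave 401 and 440.3, a mean of 421 ± 27.5 (SD, n = 2). The other 4 stayed closer together than Mrps14. Mrps34, which stabilises the small subunit RNA, gave 324 and 384, Mrps18c 281 and 358, Mrps33 360.3 and 241, and Mrps26 257 and 320 on replicates 1 and 2.

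Of 6 genes for the decoding centre and the mRNA path, 3 passed both floors and 6 that of replicate 2. Mrps7, a head protein, gave 215 on replicate 1 and 191 on replicate 2. Mrps2 gave 315 and 122 and Mrps24, at the mRNA entrance, 151 and 436, so this pair went opposite ways. Mrps5, also at the entrance, gave 6.10 and 134, and its other probe set 26.9 and 10.4. Mrps11 and Mrps12, given above, were the others below the floor of replicate 1.

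Of 9 measured small subunit genes listed as specific to mitochondrial ribosomes, 4 were above the floor on both arrays, Mrps26, Mrps33, Mrps34 and Mrps35. Mrps35 gave 275 on replicate 1 and 233 on replicate 2. Another 4 were above it on replicate 2 only, among them Mrps31, with 29.1 and 167, and Mrps25, with 32.6 and 163. Mrps22, in which human mutations impair mitochondrial translation, was above it on replicate 1 only, with 209 and 86.6. Of 15 bacterial-type genes 9 were above it on both arrays and 15 on replicate 2. The bacterial-type Mrps6 gave 34.1 and 183, and Mrps21 144 and 403, each below the floor on replicate 1. Of the names that do not match the structures, Mrps30, a large subunit protein, gave 182 and 340.5, and Mrps18a 186 and 107. Mrps36, whose protein belongs to the 2-oxoglutarate dehydrogenase complex, gave 158 and 230.

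**Figure D3:**
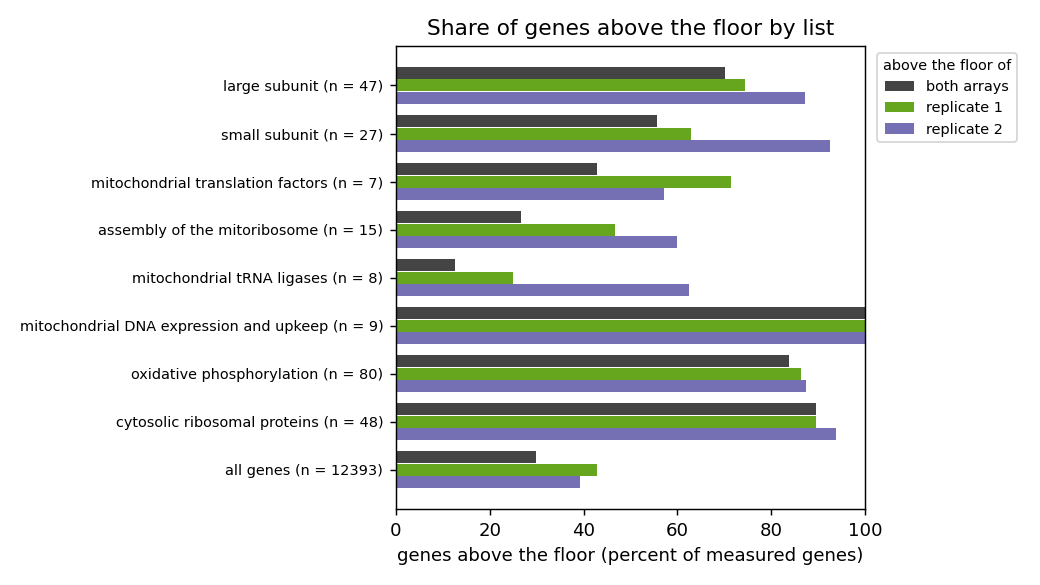
Percent of measured genes above the floor (x axis) on both arrays, on replicate 1 and on replicate 2, for each list (y axis, number of measured genes in brackets). The small subunit bars stand at 55.6%, 63.0% and 92.6%, and those of all genes at 29.8%, 42.9% and 39.3%.

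Between the arrays, 39 of the 48 members above the floor on both lay within 2-fold, or 81.2%, beside 76.3% of all genes above it. Replicate 1 was over 2-fold higher for 5 members, or 10.4%, beside 8.05% of genes, and replicate 2 for 4, or 8.33%, beside 15.6%. These shares are near the background. The median log2 difference, replicate 1 minus replicate 2, was -0.15 for the members, -0.08 for the large and -0.25 for the small subunit, and -0.11 for all genes above the floor. The SD of log2 signal between the arrays, pooled over genes, was 0.51 for members, or 1.43-fold, and 0.63 for all genes, or 1.54-fold. With 2 samples of 1 group no difference was tested. Across the 48 genes, which share their arrays and are not independent replicates, log2 signals on the arrays correlated with Pearson's r of 0.49, beside 0.76 over 3689 genes whose signals span a wider range. Differences of the members ran from -1.59 to 1.37, and 33 of 48 were higher on replicate 2, or 68.8%, beside 55.1% of genes. That count was 30 under quantile normalization, 42 under median centring and 27 with the mean over all probe sets. The median difference of all genes above the floor was then -0.04, -0.75 and -0.03, against -0.11 as deposited.

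The members over 2-fold higher on replicate 1 were Mrps2, Mrpl14, Mrpl54, Mrpl36 and Mrpl57. Mrpl14 gave 304.5 on replicate 1 and 118 on replicate 2, Mrpl36 323 and 142, and Mrpl54 325 and 141. In these 3 and in Mrps2, which gave 315 and 122, the lower signal was close to the floor of replicate 2. Mrpl57, a short protein confined to mitochondrial ribosomes, gave 574 and 257. Over 2-fold higher on replicate 2 were Mrpl39, Mrps24, Mrpl11 and Mrpl41. Mrpl39 gave 428 and 1292, a 3.02-fold difference, but its other probe set, which passed both floors too, gave 203 and 172. Mrps24 was 2.88-fold higher by 1 probe set and gave 218 and 252 by the other. The replicate 1 signals behind the differences of Mrps24, 151, and Mrpl11, 162, were close to the floor of 149.6. Mrpl41, a protein near the tunnel exit, gave 297.5 and 753, and a second probe set gave 296 and 479. The second probe set therefore turned the direction for Mrpl39, brought Mrps24 and Mrpl41 within 2-fold and kept their direction. Median centring of the arrays left 0 of 48 members past 2-fold in favour of replicate 1 and put 17 past it in favour of replicate 2. Of all genes above the floor it put 1.65% and 38.4% past 2-fold in these directions.

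At the other end, 9 of the 48, or 18.8%, lay within 1.1-fold, beside 12.5% of genes above the floor. The 5 closest were Mrpl4, Mrpl44, Mrpl16, Mrpl21 and Mrpl3. Mrpl21 gave 234 on replicate 1 and 235 on replicate 2, and by its second probe set 238 and 181.

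**Figure D4:**
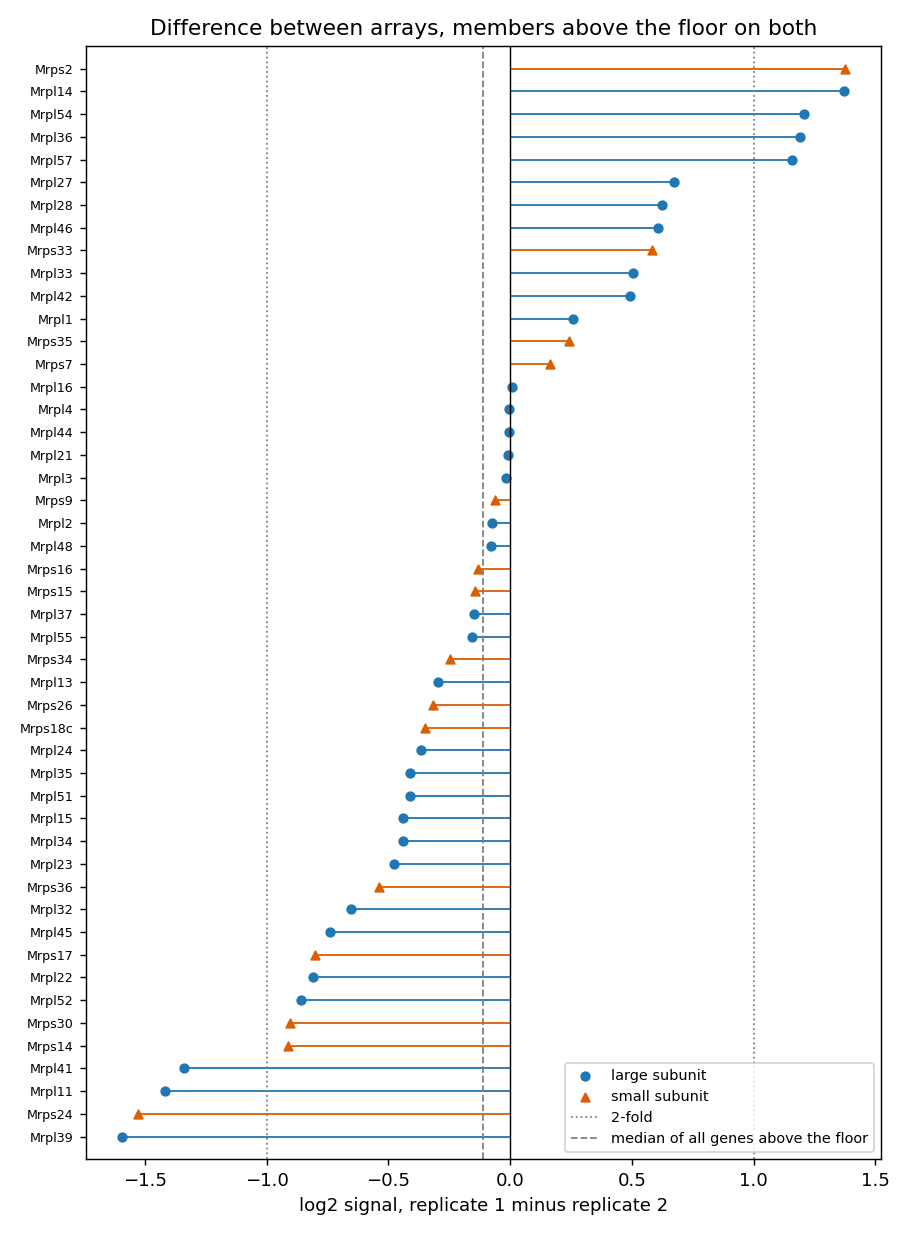
Log2 signal of replicate 1 minus replicate 2 (x axis) for the 48 members above the floor on both arrays (y axis), large subunit as circles and small subunit as triangles. Dotted lines mark 2-fold and the dashed line the median of all genes above the floor, -0.11. Of the 48 points 39 lie between the dotted lines.

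Probe sets of 1 gene often gave different answers. Of the 33 members with several probe sets, 23 had at least 1 above the floor on both arrays, and in 18 of these another was not. In 5 all were above it: Mrpl21, Mrpl39, Mrpl48, Mrps14 and Mrps24. Of 11 members for which several probe sets passed both floors, 8 had them all within 2-fold and 6 had them opposed in direction. The 6 were Mrpl21, Mrpl28, Mrpl39, Mrpl48, Mrpl52 and Mrps9. By its brightest probe set Mrpl28 gave 296 on replicate 1 and 192 on replicate 2, but by another 156 and 244. Mrps9 gave 269 and 281, and by another 189 and 118. Mrpl15, with 7 probe sets, the most of any member, had log2 differences from -4.57 to 1.34. Its extreme probe sets gave 23.7 and 563, and 196.5 and 77.6, each below the floor on 1 array, while the 2 above it on both differed by -0.44 and -0.59.

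**Figure D5:**
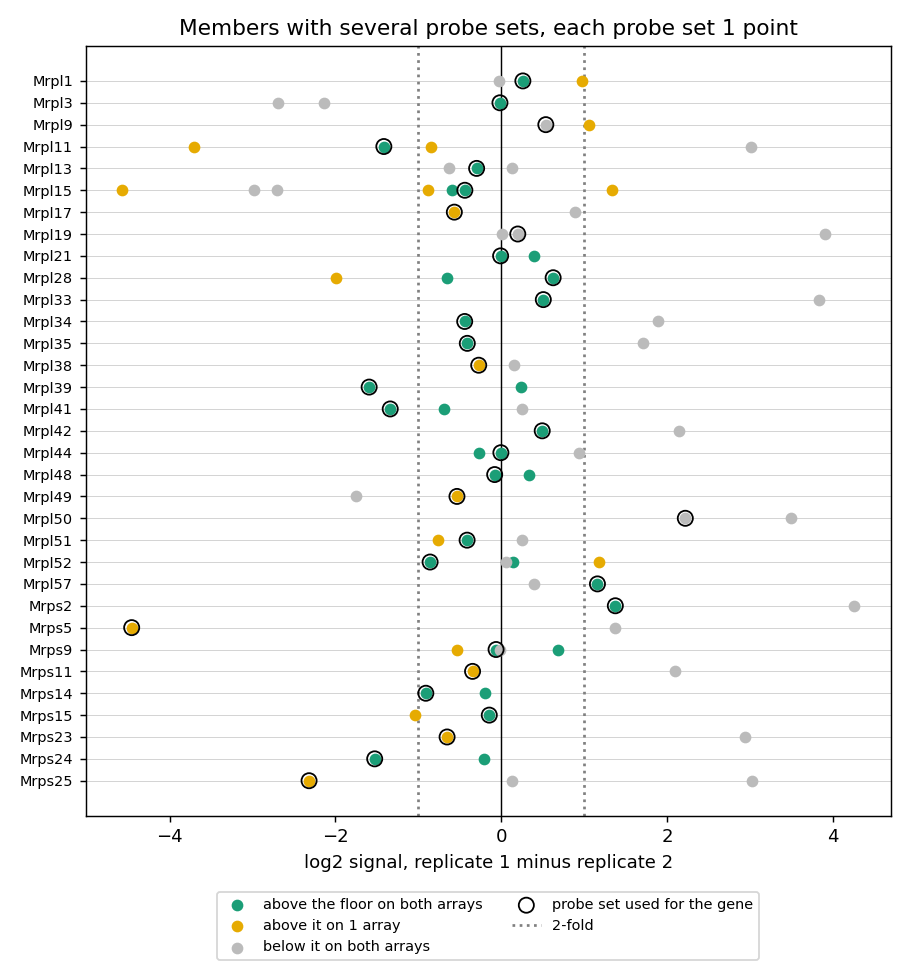
Log2 signal of replicate 1 minus replicate 2 (x axis) for every probe set of the 33 members with several (y axis), coloured by whether it was above the floor on both arrays, on 1 or on neither. Rings mark the probe set used for the gene, and dotted lines mark 2-fold. Points above the floor on both arrays lie between -1.59 and 1.37, and those below it on at least 1 array reach -4.57 and 4.25.

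Of 4 measured mitoribosomal proteins with other names, 1 was above the floor on both arrays and 4 on replicate 2, against 29.8% and 39.3% of all genes. It was Chchd1, with 218 on replicate 1 and 258.5 on replicate 2, and Dap3, a GTP-binding small subunit protein, gave 125 and 235. Of 7 mitochondrial translation factors, 3 were above it on both, or 42.9%. They included the elongation factor gene Tufm, with 176 and 129, and Gfm1, for the translocase, with 211 and 396. Also above it was the initiation factor gene Mtif2, with 196 and 186. Assembly factors were above it on both in 4 of 15 cases, or 26.7%, near the 29.8% of all genes. Among them Dhx30, an RNA helicase gene, gave 328 and 927 and Mettl17 gave 275.5 and 702, both over 2-fold higher on replicate 2, and the GTPase genes Mtg1 and Eral1 gave 201 and 240, and 174.5 and 224. Of 8 mitochondrial tRNA ligase genes 1, or 12.5%, was above the floor on both arrays, Rars2 with 211 and 368.

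Of the genes that copy or transcribe mitochondrial DNA or stabilise its RNA, 9 of 9 passed both floors, against 29.8% of all genes. Tfam, which packages that DNA and takes part in its transcription, gave 439 on replicate 1 and 351 on replicate 2. Polg, the DNA polymerase, gave 403 and 291. Ssbp1, for the single-strand binding protein, gave 260.4 and 862, the only 1 of the 9 over 2-fold apart. Of the nuclear regulators 3 of 9 were above the floor on both, or 33.3%, near the 29.8% of all genes. These were Yy1 with 372 and 862, Nrf1 with 164 and 283, and Pprc1 with 159.7 and 252. Gabpa, the DNA-binding part of GABP, gave 129 and 79.3, below the floor on both. Myc gave 661 and 77.3, above it on replicate 1 only.

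Next to the members, 43 of 48 genes for cytosolic ribosomal proteins passed both floors, or 89.6%. Genes of oxidative phosphorylation did so in 67 of 80 cases, or 83.8%, against 29.8% of all genes. Of these 67 respiratory genes 20, or 29.9%, exceeded 2-fold toward replicate 2 and 2, or 2.99%, toward replicate 1. Of the 48 mitoribosomal genes 8.33% and 10.4% did so, and of all genes above the floor 15.6% and 8.05%. Median differences were -0.46 for the respiratory genes, -0.15 for the mitoribosomal genes and -0.11 for all genes above the floor. For the 43 cytosolic ribosomal protein genes the numbers were 3, or 6.98%, and 4, or 9.30%, with a median of -0.01. The lists were chosen with results of these data known, and no test was made between them.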

How the data were processed

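Biotinylated cRNA from total RNA of sorted cells was hybridised to Affymetrix arrays, per the labels. The authors deposited linear signal intensities, for which the submitters' processing notes name MAS5 without version or parameters. The trimmed mean was 150.0 on replicate 1 and 150.1 on replicate 2, so each array had been scaled to a common target. Having 2 arrays limits the precision. Of 22690 probe sets, 64 controls were left out, 20380 named 1 gene in the platform annotation, 691 named several and 1555 were unnamed here. The probe sets naming 1 gene covered 12393 genes. Mrpl30 and Mrpl53 had probe sets that also named another gene and were not counted.

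Log2 signals were compared as deposited, replicate 1 minus replicate 2, without a pseudocount. Over 2-fold differences were counted among genes above the floor on both arrays. A fold against an array below the floor was taken against that floor and given as a lower bound. Pooled spread is the root of the mean squared difference over 2. Named members were the 6 brightest of each subunit, those over 2-fold apart, those below both floors and the 5 closest between arrays. Members whose probe sets above both floors were opposed in direction were named too, with some from the lists of ribosome function. The brightest of each related list were also named. Cytosolic ribosomal and oxidative phosphorylation genes were taken by symbol. The members, lists and rules were chosen with earlier results of these data known. The alternatives were a 95th-percentile floor, the array median as floor, no floor, quantile normalization, median centring, log2(signal + 32), dropping the _x_at probe sets, and means over the probe sets of a gene. The counting was tested on simulated data, and motif search on planted motifs. Python 3.11.15, pandas 2.3.3 and numpy 2.4.6 were used. No p-value can be had from 1 group of 2 samples.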

Additional observations from a re-analysis of the deposited data

How the results depend on the processing

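The count of members above the floor ran from 32 with a 95th-percentile floor, beside 21.6% of all genes, to 62 with the array median as floor, beside 42.6%, and was 48 under quantile normalization, median centring and log2(signal + 32). Without a floor it is 74 by construction, 47 of the large and 27 of the small subunit. Of those 74, 8 were past 2-fold toward replicate 1 and 15 toward replicate 2, beside 33.3% and 18.4% of all genes. On 1 array alone the counts ran from 52 to 66 for all members, from 35 to 41 for the large and from 17 to 25 for the small subunit. The mean over all probe sets of a gene left 34 members above the floor, 21 of them of the large subunit. Of the 34, 3 were past 2-fold toward replicate 1 and 0 toward replicate 2, beside 7.97% and 9.58% of all genes above the floor. Median centring moved the median difference of members to -0.78 and that of all genes above the floor to -0.75. Of 48 members 0 were then past 2-fold toward replicate 1 and 17 toward replicate 2, beside 1.65% and 38.4% of all genes above the floor. The 95th-percentile floor gave 1 and 2 such members of 32, beside 6.30% and 16.6% of all genes above it. With the array median as floor there were 7 and 7 of 62, beside 14.4% and 12.9%. Leaving out _x_at probe sets gave 3 and 3 of 44, beside 7.46% and 14.4%. Averaging only the probe sets that passed both floors gave 5 and 2 of 48, beside 7.43% and 11.2%. The causes were not tested. Of the 48 members, 21 were above the floor on both arrays under all 8 alternatives that had a floor, and 0 of the 9 members over 2-fold apart stayed so in the same direction under all of them. No paired analysis was possible because the samples form 1 group. Signals within a few units of the floor, such as those of Mrpl9 and Mrpl58, cannot be placed firmly on either side of it.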

Other observations

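Probe sets that name a member together with another gene were kept out of all counts. The probe set for Mrpl53 and Ccdc142 gave 346 on replicate 1 and 224 on replicate 2, that for Mrpl30 and Gm6238 gave 665 and 364.5, and that for Mrps34 and Nme3 gave 55.1 and 147. Members with an ETS match in the promoter window passed both floors in 14 of 24 cases, and those without in 28 of 41. For NRF1 the numbers were 8 of 12 with a match and 34 of 53 without.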
